A study of Mus musculus with 2 samples.

Results

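The genes described here are 10 homeobox genes of the mouse Hoxa and Hoxb clusters in blood stem cells: Hoxa3, Hoxa5, Hoxa6, Hoxa7, Hoxa9, Hoxa10, Hoxb2, Hoxb3, Hoxb4 and Hoxb5. They were picked by symbol, without a threshold on their level, and all 10 were found among the 43346 mouse Ensembl genes of the tables, which hold 39 Hox genes in all. Every transcript filed under their gene identifiers was kept, non-coding ones included. The samples are 2 total RNA libraries, each made from 100 hematopoietic stem cells, the rare marrow cells that renew themselves and feed all blood lineages. Both came from adult male C57BL/6J mice aged 5 to 6 weeks, with no treatment named, and they form a single group. The labels number them as biological replicates 1 and 2 but give them the same donor identifier, and separate animals are not stated, so part of the spread may be technical. With no second condition there was nothing to test, and the 2 libraries show only how far each value held.

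Hox genes encode transcription factors that bind DNA through a homeodomain. They lie in 4 clusters, and within each their order along the chromosome follows the order in which they are switched on along the body axis of the embryo. In blood, genes of the A and B clusters are active in stem and early progenitor cells and are shut off as cells mature. Hoxa9 and its cofactor Meis1 are known for driving leukemia when their expression persists. Hox proteins bind DNA together with the cofactors Meis and Pbx. Kmt2a, a histone methyltransferase also called Mll1, keeps the clusters open, and Polycomb proteins silence them.

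Where a sentence gives a pair of values, replicate 1 comes first. Replicate 1 held 48313341 expected counts (estimated reads) and replicate 2 held 28947093. A single noncoding locus that overlaps ribosomal RNA, Gm42418, took 29.8% and 40.9% of all TPM (abundance per transcript length, with the same total in each library), and nuclear coding genes 30.03% and 26.55%. Of 10 stem cell markers, 9 were detected in both libraries, and Slamf1 was at 2.87 and 0.36 TPM. Of 10 mature neutrophil and monocyte markers 1 was detected in both, Lyz2. Their levels summed to 5.11 TPM in replicate 1 against 342.6 in replicate 2, with Retnlg, Mmp8 and Ly6g at 0 counts in both. B cell markers (2 of 8 detected in both) summed to 9.08 and 34.3 TPM. Detected in both were also 2 of 7 T and NK cell, 3 of 7 endothelial, 1 of 8 stromal, 3 of 5 megakaryocyte and 7 of 7 erythroid markers. The erythroid markers summed to 2220 and 1925 TPM, of which Car1 held 1333 and 1071, against 529 and 364 TPM for the stem cell markers. The part of these other cells in the differences given below was not tested.

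The A cluster carried nearly all of the signal. Detection here means at least 1 TPM and at least 10 expected counts, and 6 of the 10 genes met it in both libraries: Hoxa3, Hoxa5, Hoxa6, Hoxa7, Hoxa9 and Hoxb3. Among all 21474 protein coding genes, 45.5% met it in both. Taken singly, replicate 1 had 7 of the 10 (47.6% of coding genes) and replicate 2 had 8 (50.1%). The 10 genes together reached 92.1 and 59.1 TPM. In a pool of cells, fewer expressing cells and less RNA per cell cannot be told apart.

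Hoxa9, which supports stem cell repopulation of the marrow, was the highest of the 10, with 42.1 TPM in replicate 1 against 24.1 in replicate 2 (33.1 ± 12.7, SD, n = 2). These rest on expected counts of 1961 and 652, and the bounds that the authors' quantification gives are 38.7 to 44.0 TPM and 20.9 to 26.0 TPM. The bounds do not overlap. Hoxa9 was 1.75-fold higher in replicate 1, and 1.54-fold once TPM was rescaled over nuclear coding genes. Hoxa9 stood at the percentile 92.6 of coding genes in replicate 1 and 87.7 in replicate 2.

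Hoxa7, its neighbour in the cluster, was measured at 12.3 and 13.3 TPM (12.8 ± 0.73, SD, n = 2) from 738 and 413 counts. The model bounds, 11.3 to 13.1 and 11.7 to 14.6 TPM, overlap. Hoxa7 was thus close between the pools. Hoxa6, another trunk-patterning gene, was at 9.87 and 6.15 TPM, from 238 and 83 counts. Hoxa5, best known for its need in lung development, was at 4.49 and 3.41 TPM from 253 and 108 counts. Hoxa6 and Hoxa5 both stood higher in replicate 1, by 0.60 and 0.32 on the log2(TPM + 1) scale, a scale that understates differences of low genes. The bounds of Hoxa6, 8.45 to 10.9 and 4.70 to 7.24 TPM, lie apart. Those of Hoxa5, 3.87 to 4.96 and 2.68 to 3.90 TPM, overlap narrowly. Rescaled over nuclear coding genes, replicate 1 over replicate 2 was 1.42-fold for Hoxa6, 1.16-fold for Hoxa5 and 0.82-fold for Hoxa7.

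Hoxa3, which is needed to form the thymus and parathyroid, had 17.0 TPM in replicate 1 but 7.02 in replicate 2. The counts were 1154 and 281 and the bounds, 15.6 to 17.6 and 6.08 to 8.28 TPM, lie apart. It was 2.42-fold higher in replicate 1, and 2.14-fold after rescaling. Hoxa10, the neighbour of Hoxa9 on the other side and a driver of progenitor growth when overexpressed, had no count in replicate 1 and 48 counts in replicate 2, or 1.19 TPM. For replicate 1 the model's upper bound was 0.178 TPM, and 3 counts, the limit that a count of 0 allows for counting error alone, would be 0.060 TPM at the deposited effective length of 1567 bases. Both lie under the lower bound in replicate 2, 0.967 TPM. Of nuclear coding genes that replicate 2 puts at 1 to 5 TPM, 18.5% likewise had no count in replicate 1, whereas 1.91% of those at that level in replicate 1 had none in replicate 2.

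The B genes were lower. Hoxb3, the paralog of Hoxa3, was at 2.88 and 2.53 TPM (2.71 ± 0.25, SD, n = 2). Its counts were 283 and 53, which differ more than the TPM do. TPM allows for depth and for length, and the deposited effective length of the gene was 3068 bases in replicate 1 and 1153 bases in replicate 2. Of its TPM in replicate 2, the short forms Hoxb3-203 and Hoxb3-204 held 0.73 and 0.87 from 7.03 and 5 counts, so that value rests on few reads. Hoxb2, a hindbrain patterning gene in the embryo, was found almost wholly in replicate 1. It had 163 counts there (3.37 TPM, bounds 2.82 to 3.83) and 3 counts in replicate 2 (0.11 TPM, bounds 0.036 to 0.30). Hoxb4, which expands stem cells when overexpressed, ran the other way, with 11 counts (0.14 TPM) in replicate 1 and 49 counts (1.11 TPM) in replicate 2. Hoxb5, used in mice as a reporter of long-term stem cells, had no count in replicate 1 and 5 counts in replicate 2, or 0.16 TPM. In replicate 1 the model's upper bound for Hoxb5 was 0.069 TPM and the limit of 3 counts 0.042 TPM, against bounds of 0.059 to 0.337 TPM in replicate 2.

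**Figure D1:**
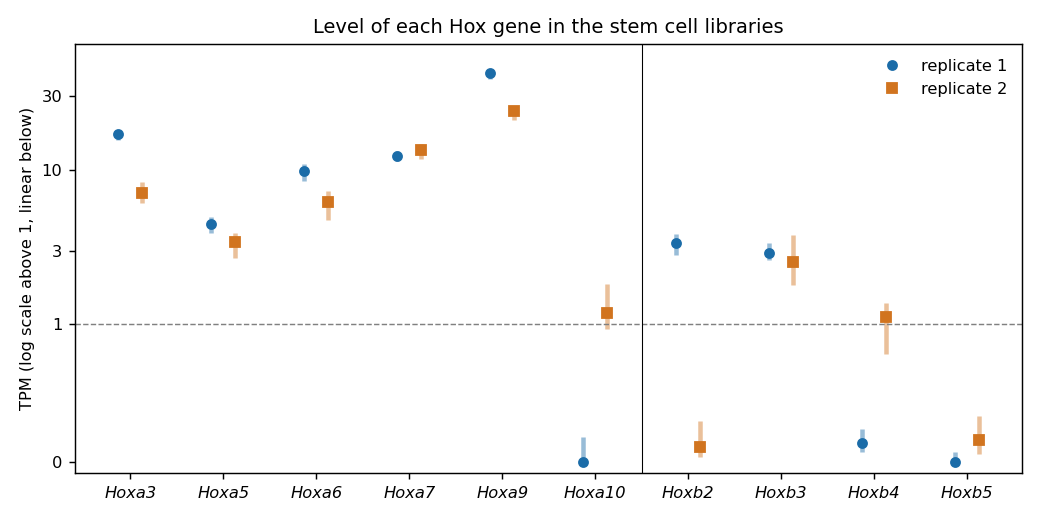
Level of each of the 10 Hox genes in TPM (log scale above 1, linear below) in replicate 1 (circles) and replicate 2 (squares), with the lower and upper bounds of the authors' quantification as bars and the 1 TPM detection level dashed. Hoxa9 is highest in both libraries, and Hoxa10, Hoxb2 and Hoxb4 pass 1 TPM in a single library each.

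Of the 9 genes detected in at least 1 library, 3 were 2-fold or more apart on the log2(TPM + 1) scale, against 23.4% of 11202 coding genes. Hoxa3 (1.16) and Hoxb2 (1.98) were higher in replicate 1, a direction seen in 11.3% of coding genes, and Hoxa10 (-1.13) was higher in replicate 2, as were 12.1%. The share depends on level: it was 36.7% for coding genes with a mean of 1 to 5 TPM, 20.1% at 5 to 20 TPM and 11.0% at 20 to 100 TPM. Requiring 10 counts in both libraries left Hoxa3 as the only gene of the 3. Adding 0.1 TPM instead of 1, or rescaling TPM over nuclear coding genes, added Hoxb4 (0.14 and 1.11 TPM), which makes 4. Scaling counts by library size factors instead (TMM or DESeq2) added Hoxb3, higher in replicate 1, and Hoxb4, higher in replicate 2, which makes 5.

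Ordered by mean TPM the genes ran Hoxa9, Hoxa7, Hoxa3, Hoxa6, Hoxa5, Hoxb3, Hoxb2, Hoxb4, Hoxa10 and Hoxb5. Both libraries put Hoxa9 above Hoxa7, Hoxa3 above Hoxa6, Hoxa6 above Hoxa5 and Hoxa5 above Hoxb3. They gave opposite orders for Hoxa7 and Hoxa3, and from Hoxb3 downward no neighbouring pair kept a strict order. Expressed as log2 ratios within a library (0.1 TPM added to each value), Hoxa9 over Hoxa7 was 1.77 in replicate 1 and 0.85 in replicate 2. Hoxa6 over Hoxa5 was close in both, at 1.12 and 0.83. Hoxb2 over Hoxb3 was the ratio of 10 that changed sign, from 0.22 to -3.65.

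Along the A cluster the level did not fall steadily from an end. Going from its 3′ side, Hoxa2 was at 1.54 and 1.78 TPM, and Hoxa4, which lies inside the span of Hoxa3, at 1.25 and 1.39 TPM. From Hoxa5 through Hoxa6 and Hoxa7 to Hoxa9 each gene, with all its transcripts summed, stood above the one before it in both libraries. On coding transcripts alone Hoxa7, at 5.72 and 3.99 TPM, was below Hoxa6, at 9.87 and 6.15 TPM. The coding transcripts of Hoxa9 were at 30.2 and 6.40 TPM, of which its full coding form held 11.8 and 5.10 TPM. Hoxa10, the next gene, was far lower. Hoxa11 and Hoxa13 had no counts. In the B cluster the signal lay at its 3′ side, on Hoxb2, Hoxb3 and Hoxb4, with 29 and 0 counts on Hoxb8 and 0 and 16 on Hoxb6.

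**Figure D2:**
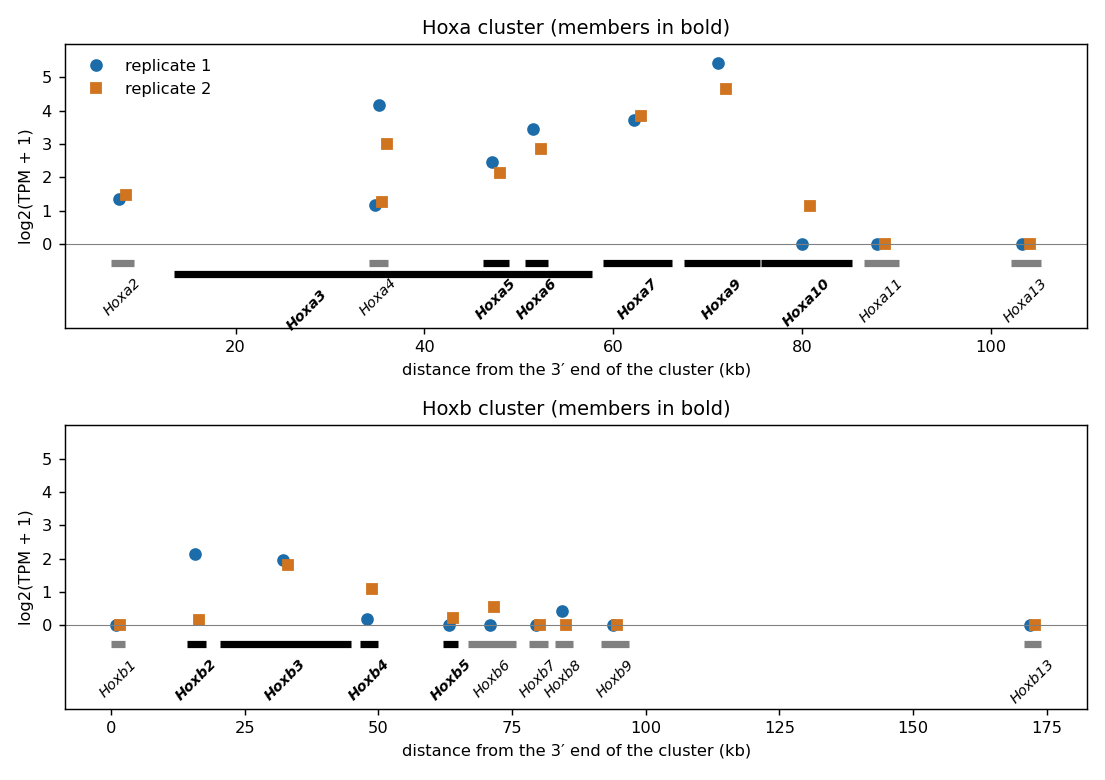
Level of Hoxa and Hoxb genes, log2(TPM + 1), in replicate 1 (circles) and replicate 2 (squares) at the middle of its span, by distance from the 3′ end of its cluster in kb, with bars for the gene spans (Hoxa3 drawn lower since it spans Hoxa4, Hoxa5 and Hoxa6). Hoxa9 forms the peak and Hoxa10 next to it stands at 0 and 1.19 TPM.

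The 11 Hoxa genes summed to 88.5 and 58.4 TPM, and the 10 Hoxb genes to 6.75 and 4.39 TPM. The A cluster thus held 92.9% and 93.0% of the TPM of both clusters, a share that was as good as equal while the sums differed. Its part of the counts was 90.2% (89.4 to 91.0%, exact 95% binomial interval) in the first library and 93.0% (91.7 to 94.1%) in the other. Paired by paralog group, the Hoxa gene was higher in both libraries in 6 of 9 groups (3, 4, 5, 6, 7 and 9). In group 2 Hoxa2 was below Hoxb2 in replicate 1 and above it in replicate 2. The 9 Hoxc and 9 Hoxd genes had at most 4 counts in all, on Hoxc10 and Hoxc6 in replicate 2.

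The 6 Hoxa genes lie on the minus strand of chromosome 6 in build GRCm38. Hoxa3 spans chr6:52169062-52213336, Hoxa5 chr6:52201754-52204587, Hoxa6 chr6:52206288-52208722, Hoxa7 chr6:52214491-52221854, Hoxa9 chr6:52223100-52231089 and Hoxa10 chr6:52231197-52240854. The Hoxb genes lie on the plus strand of chromosome 11, Hoxb5 at chr11:96303336-96306121, Hoxb4 at chr11:96318267-96321638, Hoxb3 at chr11:96323326-96347930 and Hoxb2 at chr11:96350525-96354012. All spans are those of GENCODE M21.

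The transcripts assigned to Hoxa9 differed between the pools more than its total did. Hoxa9-201, the full coding form with 813 coding bases, was at 11.8 and 5.10 TPM. Hoxa9-202 is a coding form with a splice inside its first coding exon that leaves out 173 bases (chr6:52225618-52225790). Its reading frame of 315 bases ends before the last exon, which holds the homeobox. Hoxa9-202 had 18.4 TPM in replicate 1 against 1.30 in replicate 2, from 430 and 17 counts with a model SD of 22.3 and 4.41 counts.

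The TPM of the non-coding forms of Hoxa9 were higher in replicate 2. Hoxa9-203 starts 3719 bases upstream of Hoxa9-201, only 108 bases from the 3′ end of Hoxa10, and joins that distant exon to the middle of the gene. It was at 9.17 and 11.8 TPM, from 164 and 118 counts with a model SD of 20.4 and 6.26 counts. Hoxa9-205 is an unspliced stretch of 2286 bases that ends 877 bases upstream of the start of Hoxa9-201, at 2.75 and 5.90 TPM from 191 and 231 counts. Hoxa9-204 had no counts.

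Coding forms together reached 30.2 and 6.40 TPM, a 4.72-fold gap against 1.75-fold for the gene. They made up 71.7% and 26.5% of its TPM, and 81.9% and 46.5% of its counts. Over 7364 coding genes with at least 2 transcripts the median coding share was 81.9% and 73.9%, and 29.5% and 24.6% of genes were below 50%. By counts rather than TPM, Hoxa9-201 led in both libraries, with 60.0% (exact 95% interval 57.8 to 62.1%) and 43.9% (40.0 to 47.8%). No exon base belongs to Hoxa9-202 alone, so reads across its splice alone tell it from Hoxa9-201, and fragments averaged 123.4 and 131 bases.

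The bases around these splices show how the forms are told apart. Each run is the GENCODE M21 transcript sequence, 5′ to 3′, with the bases before the join in lower case and those after it in capitals. The same lower-case bases lead on to different capitals in Hoxa9-201, which is not spliced there, and Hoxa9-202, and Hoxa9-202 and Hoxa9-203 enter the same exon. Each of the 3 occurs in no other transcript of the annotation.
Hoxa9-201: ggcgccggacggcagGTATATGCGCTCCTG
Hoxa9-202: ggcgccggacggcagTTGATAGAGAAAAAC
Hoxa9-203: ccctggtgccttaagTTGATAGAGAAAAAC

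**Figure D3:**
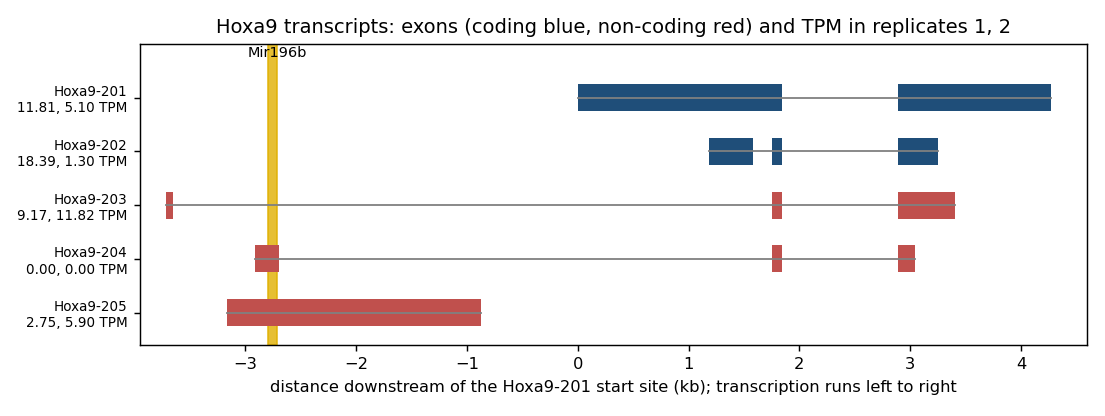
Exons (boxes) of the 5 Hoxa9 transcripts by distance in kb downstream of the Hoxa9-201 start, coding transcripts in blue and non-coding ones in red, with each transcript's TPM in replicates 1 and 2 at the left and the Mir196b hairpin as a yellow band. Hoxa9-202 lies wholly within the exons of Hoxa9-201, while Hoxa9-203 and Hoxa9-205 begin upstream, on the side of Hoxa10.

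Hoxa9-205 runs across the hairpin of Mir196b, a microRNA known to repress Hox genes such as Hoxb8. Its mature form, given because it lies within that transcript (chr6:52230129-52230150, minus strand, RefSeq on GRCm38.p6), has the seed, bases 2 to 8, in capitals. Libraries of long RNA do not measure the mature form, and the hairpin could get no count of its own, its deposited effective length being 0.
miR-196b-5p: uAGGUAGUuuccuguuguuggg

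Hoxa7 too had much of its level on a form that is not translated into full protein. Hoxa7-205, annotated as a target of nonsense-mediated decay, starts 2888 bases upstream of the coding form and splices an extra exon into the first coding exon. It was at 6.57 and 9.34 TPM, from 402 and 322 counts. The coding form Hoxa7-201 was at 5.72 and 2.30 TPM from 336 and 76 counts. Hoxa7-205 therefore led in both libraries, with 54.5% (exact 95% interval 50.8 to 58.1%) and 78.0% (73.7 to 81.9%) of the counts. Most exon bases are shared by the 2 forms, and reads there were divided by the model. In M21, 53 exon bases lie in Hoxa7-201 and no other form of the gene, and 78 in Hoxa7-205 alone. Further bases that tell the 2 apart also lie in Hoxa7-203 or in Hoxa7-202, the latter without counts. As deposited, Hoxa7-201 has 1952 bases against 2009 in M21, so the 53 may not hold for the model. The model SD was 7.21 and 3.83 counts for Hoxa7-201, and 7.13 and 2.74 counts for Hoxa7-205. The 2 runs hold the same capitals after different lower-case bases. Hoxa7-201 is not spliced there but reads through within its first exon, and its run also occurs in Hoxa7-203 (0 and 0.71 TPM).
Hoxa7-201: gcacccaactcgcagAGAAGCGGCTACGGG
Hoxa7-205: ggagcatcaaatcagAGAAGCGGCTACGGG

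Hoxa3 was led by its coding form in both pools. Hoxa3-201 begins 40.3 kb upstream of its first coding exon, beyond Hoxa6, and was at 10.9 and 4.22 TPM, or 64.2% and 60.1% of the gene. Hoxa3-204, a processed transcript from the middle of the span, was at 5.14 and 0.67 TPM, from 233 and 17 counts. Hoxa3-203, a retained intron form at the distant start, was at 0.92 and 2.13 TPM from 58 and 75.6 counts. Hoxa3-204 was thus higher in replicate 1 and Hoxa3-203 in replicate 2. The splice into the first coding exon of Hoxa3-201, shared with Hoxa3-202 (no counts), reads as follows.
Hoxa3-201: taaacatctttggagGTTTGCGCGCGGCGG

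Hoxb3 was read as a single form in replicate 1 and as 4 in replicate 2. All 283 counts of replicate 1 were given to the long coding form Hoxb3-202 (2.88 TPM). In replicate 2 Hoxb3-202 stood at 0.47, Hoxb3-201 at 0.46, Hoxb3-203 at 0.73 and the processed transcript Hoxb3-204 at 0.87 TPM, the last from 5 counts. By counts Hoxb3-202 led there too, with 49.1% (exact 95% interval 35.1 to 63.2%). The 48 counts of Hoxa10 in replicate 2 fell mainly on Hoxa10-202, the full coding form from the proximal start (0.97 TPM, 42.7 counts), with 0.22 TPM on Hoxa10-201 from the distal start. Hoxa5, Hoxa6 and Hoxb4 have 1 transcript each, the coding form 201, so their assignment was fixed. Hoxb2 and Hoxb5, with 2 transcripts each, were assigned to their coding form 201 alone, Hoxb5 from 5 counts in replicate 2. Of the 5 genes with at least 2 transcripts and counts in both libraries (Hoxa3, Hoxa7, Hoxa9, Hoxb2 and Hoxb3), 3 kept the same leading transcript by TPM, and 5 by counts. The leading transcript by TPM differed in 48.6% of 7364 coding genes.

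**Figure D4:**
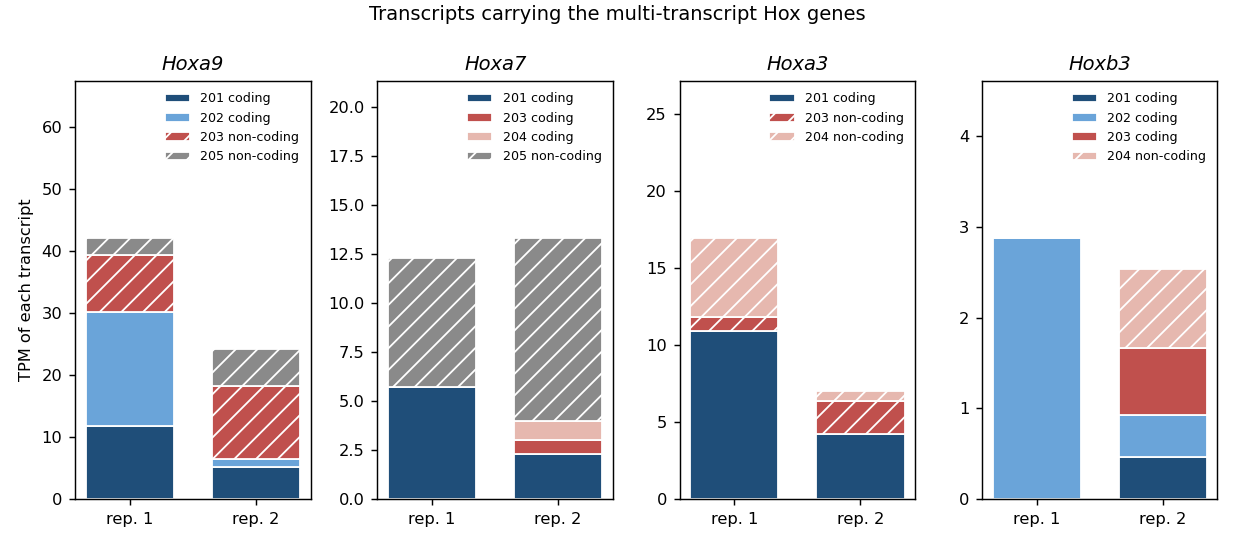
TPM of each transcript, stacked, in replicate 1 and replicate 2 for Hoxa9, Hoxa7, Hoxa3 and Hoxb3, each panel with its own scale from 0, non-coding forms hatched (including the nonsense-mediated decay form of Hoxa7). The unhatched share of Hoxa9 is 71.7% in replicate 1 and 26.5% in replicate 2.

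Some of these genes overlap genes on the opposite strand. The sources used here do not say whether the counting used strand, so a gene and its antisense partner may share reads. Hoxb3os, an antisense RNA that overlaps 2250 exon bases of Hoxb3 and 953 of Hoxb2, had 151 counts (2.15 TPM) in replicate 1 and none in replicate 2. All 151 counts were assigned to Hoxb3os-201, which overlaps Hoxb3 but has no exon within Hoxb2. The 953 bases shared with Hoxb2 belong to its other form, Hoxb3os-202, which had no counts in either library. Like Hoxb3os, Hoxb2 was near 0 in replicate 2, and the part of antisense reads in its value was not tested. In the A cluster the 23 annotated genes on the opposite strand held 0 and 9 counts in all, the 9 on Hoxaas3, which overlaps Hoxa7 by 586 exon bases. The A values therefore have hardly any antisense counts beside them. Sequence shared with other genes was small: runs of 31 bases that also occur elsewhere on the same strand made up 8.24% of those of Hoxa3, mostly shared with Gm28308, a read-through gene with 0.1 and 0 counts. They made up 3.32% of Hoxa6, 1.55% of Hoxb4, 1.33% of Hoxb3, 1.02% of Hoxa9, 0.98% of Hoxa7 and less of the others.

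The starts of Hoxa9 and Hoxa10 are set side by side because the genes adjoin and hold the highest and the lowest level of the 6 Hoxa genes. The Hoxa9 start used is that of Hoxa9-201, which carried 28.0% and 21.1% of the gene's TPM. Shown are the 250 bases upstream of the Hoxa9 start (chr6:52227371-52227620) and of the proximal Hoxa10 start (chr6:52234940-52235189), both on the minus strand, 5′ to 3′, from RefSeq on GRCm38.p6. Motifs searched on both strands are in capitals and do not overlap: GGGCGG, held by 32.7% of 32851 promoters of that length, CCAAT (33.8%), TATAAA (12.4%), the Meis core TGACAG (15.9%), the Cdx core TTTATG (10.8%) and TTTACG (2.61%).
Hoxa9: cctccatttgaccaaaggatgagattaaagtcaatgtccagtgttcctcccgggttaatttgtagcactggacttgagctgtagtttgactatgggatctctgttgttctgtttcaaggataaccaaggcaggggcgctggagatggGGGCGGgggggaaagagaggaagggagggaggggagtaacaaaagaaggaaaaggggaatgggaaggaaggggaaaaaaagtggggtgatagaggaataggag
Hoxa10: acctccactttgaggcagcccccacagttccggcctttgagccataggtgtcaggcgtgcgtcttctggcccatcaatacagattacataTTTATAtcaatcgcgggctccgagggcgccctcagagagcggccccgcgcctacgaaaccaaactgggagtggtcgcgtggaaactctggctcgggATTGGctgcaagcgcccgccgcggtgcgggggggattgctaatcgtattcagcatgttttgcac
Hoxa9 held 1 GGGCGG and Hoxa10 1 CCAAT and 1 TATAAA on the reverse strand. The Hoxa9 window had 3 CpG and the Hoxa10 window 20, where the median over all promoters was 6. A match of letters is a description of the window and not a site of binding.

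The partners of Hox proteins were present. Of 9 cofactor genes 6 were detected in both libraries. Meis1, which binds DNA with Hoxa9, was at 86.7 and 60.2 TPM, and Pbx4 at 84.9 and 14.01 TPM. Pbx4 was 2-fold or more higher in replicate 1, and Pbx2, Pbx3, Pknox1 and Meis3 were so in replicate 2. Meis3 had 0 and 2.02 TPM, and Meis2 and Pknox2 had no counts. The median log2 difference was -1.03 for the cofactors, 0.23 for the 10 Hox genes and 0.09 for coding genes. The cofactor median is the value of Pknox1, which had 1046 and 754 counts, where the DESeq2 size factors were 1.39 and 0.72. Differences within the lists were called by TPM only, and not on scaled counts.

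Of 14 genes that act on the clusters as activators, 11 were detected in both libraries. By TPM 1 of them, Kmt2b, was over 2-fold higher in replicate 1. Its counts, 8459 and 4779, were less far apart by ratio than the DESeq2 size factors of the libraries, 1.39 and 0.72. Kmt2b, a relative of Kmt2a, was at 135.5 and 65.3 TPM, Psip1, which tethers Kmt2a to chromatin, at 79.7 and 68.7 TPM, and Kmt2a at 65.6 and 70.6 TPM. Cdx1, Cdx2 and Cdx4, which switch on Hox genes in the embryo, had no counts. Of 15 Polycomb genes and the demethylases that oppose them 14 were detected in both, with 2 over 2-fold higher in replicate 1 (Phc1 and Pcgf2) and 1 in replicate 2 (Ezh2). Ezh2, the enzyme that places the silencing mark, was at 48.1 and 102.3 TPM, its partner Suz12 at 50.3 and 44.4 TPM, and Phc1 at 35.4 and 15.9 TPM. Cbx8 was not detected, at 0 and 0.48 TPM.

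Of 10 genes known to be bound by Hoxa9 in blood cells 9 were detected in both. Lmo2, an adaptor of stem cell factors, was at 393.1 and 190.7 TPM, the factor Myb at 186.5 and 196.2 TPM, and the cell cycle kinase Cdk6 at 158.7 and 112.4 TPM. Cebpa, a myeloid factor, was at 0.25 and 4.14 TPM. Lmo2 and Cebpa were the only 2 of the list over 2-fold apart, in opposite directions. Among 48 blood transcription factors the 5 nearest to Hoxa9 in level were Tcf4 (44.5 and 32.1 TPM), Lyl1 (46.7 and 31.8 TPM), Foxo3 (35.4 and 31.1 TPM), Mecom (52.0 and 17.9 TPM) and Erg (58.0 and 29.2 TPM). Their distance on the log2(TPM + 1) scale over the 2 libraries was 0.40 to 0.52, which describes their levels only.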

How the data were processed

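Total RNA of 2 libraries of 100 stem cells each was quantified by the authors per gene and per transcript. The authors deposited expected counts, estimated reads that divide a read that fits several places among them. TPM values were deposited by the authors beside posterior mean TPM and model bounds, whose probability level is not stated per the file headers. FPKM was deposited too. The transcript tables as deposited give the percent of its gene that each transcript carries. The build is mm10 with annotation M4, per the labels and the deposited text, and the columns are those of RSEM, per the file headers. For the aligner, its version, the gating and the handling of strand, the sources used here give nothing.

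The 10 genes and the lists were chosen with earlier results of these data known. Of 69691 table rows, 43346 are mouse Ensembl genes, and 42462 matched a symbol. Positions and transcript names are from GENCODE M21 on the same build, and listed transcripts had equal lengths in both except Hoxa7-201 (1952 bases in the tables, 2009 in M21). RefSeq promoters were found for 7 of the 10 genes. Named genes are the 10, other Hox and cluster genes with 10 or more counts, the 3 highest and the undetected members with signal of each list, transcripts with at least 10% of a gene, and the 5 blood factors nearest to Hoxa9. Hoxc6, Hoxc10, Gm28308, Hoxaas3, Slamf1, Pcgf2 and list members counted as over 2-fold apart or at 0 were named after their values were seen. Some genes that this rule names are left out.

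Levels are TPM with SD over the 2 libraries, differences are log2(TPM + 1), and ratios add 0.1 TPM. No test and no p-value was possible with 1 group. Exact 95% binomial intervals and the limit of 3 counts cover counting error only, because PCR copies are not independent molecules. Count alternatives used edgeR 4.0.16 (TMM) and DESeq2 1.42.0 size factors on expected counts rounded to whole numbers, in R 4.3.3. Tables were handled with pandas 2.3.3 and numpy 2.4.6 under Python 3.11.15, intervals came from scipy 1.17.1, and figures from matplotlib 3.10.9. The steps were tested on simulated data. Alternatives were other detection thresholds, pseudocounts, units, scalings and leaving out each library. Proteins of the 10 genes were not compared here.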

Additional observations from a re-analysis of the deposited data

How the results depend on the processing

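No paired analysis was possible because there is a single group. The log2 ratio of Hoxb2 over Hoxb3 (mean -1.71) is 0.22 in replicate 1 alone and -3.65 in replicate 2 alone. The order by mean TPM turns for Hoxa7 and Hoxa3 (12.3 and 17.0 TPM) and for Hoxb3 and Hoxb2 (2.88 and 3.37 TPM) in replicate 1 alone, and for Hoxb2 and Hoxb4 (0.11 and 1.11 TPM) in replicate 2 alone. It turns for Hoxb4 and Hoxa10 in replicate 2 alone (1.11 and 1.19 TPM) and by posterior mean TPM (0.615 and 0.74). The summed level of the 10 genes (mean 75.6 TPM) was 49.1 as FPKM and 264.7 as TPM rescaled over nuclear coding genes, which change the unit, and 59.1 to 92.1 with a library left out. Genes detected in both libraries (6) were 4 to 6 under other thresholds, and 7 to 8 in a single library. The count of genes over 2-fold apart (3) was 5 with TMM-normalised counts, 5 with DESeq2 size factors and 1 where 10 counts in both libraries were required. It was 4 with 0.1 TPM added instead of 1, and 4 with TPM rescaled over nuclear coding genes. The A cluster's share of TPM (mean 93.0%) was 92.0% by posterior mean, 91.6% of expected counts, 93.2% over the 10 genes alone, 89.7% on coding transcripts alone, and 92.9 to 93.0% with a library left out. Genes keeping their leading transcript (3 of 5) were 5 by counts. The causes were not tested. The counts of genes 2-fold apart and of kept leading transcripts need both libraries, so they have no value with a library left out. Hoxa10, Hoxb4 and Hoxb5 had under 12 counts in replicate 1, the deeper library, and Hoxb2 and Hoxb5 in replicate 2, so their levels there are imprecise.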

Other observations

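Genes beside the clusters were not uniformly active. Skap2, an adaptor gene that lies next to the Hoxa cluster, was at 10.6 and 13.5 TPM, and Snx10, further along the same chromosome, at 3.58 and 14.5 TPM. Evx1, the homeobox gene next to Hoxa13, had no counts in either library. Beside the Hoxb cluster Skap1 was at 3.92 and 1.16 TPM, and Ttll6 and Calcoco2 had no counts. Of these 6 flanking genes 3 were detected in both libraries, and Hoxa9 stood above all of them in both.

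Among the other starts of the 10 genes, the 250 bases upstream of Hoxa5 held 28 CpG, those of Hoxa6 24, of Hoxa3 18, of Hoxb4 14, of Hoxa7 7 and of the distal Hoxa10 start 7. The Hoxa9 window, with 3, had the fewest of these 8 windows while its gene had the highest level. That window belongs to the start of Hoxa9-201, which carried 28.0% and 21.1% of the gene's TPM. The Hoxa7 window lies at the start of neither Hoxa7-201 nor Hoxa7-205.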
